A study of Rattus norvegicus with 47 samples.

Results

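The oligodendrocyte precursor and lineage genes are 8 genes that mark successive stages of the cells that form myelin in the brain: Pdgfra, Cspg4, Gpr17, Enpp6, Bcas1, Sox10, Olig1 and Olig2. They were taken by name, through the gene identifiers of the count tables, and 8 of 8 were found among the 15319 genes of both tables. Their RNA was measured by sequencing in punches of striatum and cerebellum from Sprague-Dawley rats of both sexes. Treated rats breathed PCB52, a polychlorinated biphenyl, in a nose-only apparatus on 28 days, each time for 4 h, and sham animals served as controls. Males were assigned to a group at 39 days of age and females at 42 days. The PCB52 and sham animals shared strain and housing, and the labels name no other treatment. Striatum gave libraries of 6 PCB52 females, 6 PCB52 males, 6 sham females and 4 sham males, and cerebellum gave 6, 5, 6 and 5 in the same order.

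Oligodendrocyte precursors are dividing cells spread through grey and white matter, and they keep producing oligodendrocytes in the adult rodent brain. They carry the receptor PDGFRα, which answers platelet-derived growth factor (PDGF), and the proteoglycan NG2, the product of Cspg4. Precursors that commit to differentiation pass through a short premyelinating stage that expresses Gpr17, Enpp6 and Bcas1, before the myelin proteins are made in bulk. Sox10, Olig1 and Olig2 encode transcription factors that stay on from the precursor to the myelinating cell. Pdgfra is also a known marker of meningeal and perivascular fibroblasts, and Cspg4 of pericytes, the contractile cells on capillaries.

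Total counts ran from 5684508 to 8914523 per library in striatum and from 6524400 to 15865054 in cerebellum. Each of the 8 genes passed the filter on low counts in each fit, and single libraries held from 22 counts (Cspg4 in cerebellum) to 4284 counts (Bcas1 in striatum). Regions matched their labels: 10 of 10 striatal projection neuron markers were higher in striatum, and 8 of 8 granule neuron and 8 of 8 Purkinje neuron markers were lower there. A few libraries stood apart. Striatum of PCB52 female 20 and cerebellum of sham male 1 held more choroid plexus transcripts than the other libraries of their region, and striatum of sham female 12 held more olfactory bulb transcripts. Another 5 libraries, each from a sham animal, held RNA of Xist and of the Y-linked Eif2s3y side by side, called here transcripts of both sexes: striatum of male 3 and cerebellum of females 8 and 10 and males 9 and 11. Fold changes without these libraries are given beside the results that they move, while correlations use all libraries of a region. Nothing in the labels says that the animals of a group came from separate litters. Values are counts scaled to a common library size (CPM) with TMM factors, and a gene is said to be called where its adjusted p in edgeR was under 0.05. Intervals and p-values measure the spread between these animals. The fit over both regions treats its 44 libraries as independent, although 21 animals gave both regions. A fit with the animal as a block is given as an alternative.

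The 250 bases before the annotated start are shown for Pdgfra and Cspg4, the pair that varied most closely together in striatum and differed most between the regions, and for Enpp6, which differed least. They are RefSeq sequence of the build GRCr8: chr14:33408517-33408766 on the minus strand for Pdgfra, chr8:66160692-66160941 on the plus strand for Cspg4 and chr16:52026729-52026978 on the minus strand for Enpp6. They read 5′ to 3′ along the gene, and capitals mark CANNTG, the E-box that basic helix-loop-helix factors such as the OLIG proteins bind.
Pdgfra: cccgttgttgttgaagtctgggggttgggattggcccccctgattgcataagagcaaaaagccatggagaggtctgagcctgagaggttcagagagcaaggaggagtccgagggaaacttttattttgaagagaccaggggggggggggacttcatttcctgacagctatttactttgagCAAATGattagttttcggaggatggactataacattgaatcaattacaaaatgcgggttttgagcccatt
Cspg4: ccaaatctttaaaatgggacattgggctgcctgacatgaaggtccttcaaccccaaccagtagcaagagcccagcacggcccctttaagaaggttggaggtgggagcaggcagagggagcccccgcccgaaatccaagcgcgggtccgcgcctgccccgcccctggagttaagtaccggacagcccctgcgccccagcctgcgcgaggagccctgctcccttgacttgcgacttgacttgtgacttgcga
Enpp6: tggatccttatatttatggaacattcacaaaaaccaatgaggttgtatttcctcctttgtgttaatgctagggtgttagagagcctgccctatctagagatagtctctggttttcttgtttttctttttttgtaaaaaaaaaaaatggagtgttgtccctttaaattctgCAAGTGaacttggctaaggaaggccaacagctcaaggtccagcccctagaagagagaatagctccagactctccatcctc
Of the 8 genes 5 had an entry in the promoter table. Pdgfra and Enpp6 each held 1 E-box in this window and Cspg4 held 0, and 65.5% of 33469 promoters of that length held at least 1. The letters ACAAAG, of the kind that SOX factors bind, occurred once in Enpp6 on either strand and 0 times in Pdgfra and Cspg4, against 16.3% of promoters. ACAATG, another such word, occurred 0 times in these windows, against 11.1% of promoters. The window held 4 CpG dinucleotides in Pdgfra, 14 in Cspg4 and 0 in Enpp6. These matches describe the letters and do not show binding.

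The 8 lineage genes were each higher in striatum than in cerebellum, in PCB52 and in sham animals. Differences were largest for Cspg4, Pdgfra and Gpr17 and smallest for Enpp6, with folds from 1.97 to 5.72 in PCB52 animals and from 1.55 to 4.66 in sham animals. In PCB52 animals 8 of 8 were called higher, against 36.5% of the 12446 genes tested (76.9% were called in either direction). In sham animals 8 of 8 were called higher, against 34.3% of genes (69.8% in either direction). In these tissue punches, fewer cells of a type and less RNA per cell cannot be told apart.

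Pdgfra, the growth factor receptor of precursors, ran from 73.0 to 154 CPM in striatum of PCB52 animals (median 100.5, n = 12) and from 13.4 to 29.6 CPM in their cerebellum (median 18.05, n = 11). In sham animals it ran from 44.0 to 130.3 CPM in striatum (median 92.3, n = 10) and from 16.5 to 32.8 CPM in cerebellum (median 23.1, n = 11). The regions did not overlap in either treatment. The lowest striatal value belonged to sham female 12, whose library held olfactory bulb transcripts. The highest belonged to PCB52 female 20, whose library held choroid plexus transcripts. The log2 fold change, striatum over cerebellum, was 2.48 ± 0.16 in PCB52 animals and 1.90 ± 0.16 in sham animals (SE, edgeR adjusted p = 2.14e-17 and 1.05e-13).

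Cspg4, which encodes the NG2 proteoglycan of the precursor surface, ran from 23.9 to 47.5 CPM in striatum of PCB52 animals (median 32.8) and from 3.21 to 9.82 CPM in their cerebellum (median 6.14). In sham animals it ran from 10.8 to 44.6 CPM in striatum (median 33.6) and from 2.93 to 12.1 CPM in cerebellum (median 6.50). The regions did not overlap in PCB52 animals. In sham animals 1 striatal library, female 12, lay below the highest cerebellar one, male 1. The log2 fold change was 2.52 ± 0.21 in PCB52 animals and 2.22 ± 0.21 in sham animals (SE, edgeR adjusted p = 5.80e-14 and 4.61e-12). Cspg4 overlaps Cimap1c in the annotation, a gene with at most 1.07 CPM in any library.

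Among genes of the premyelinating stage, Gpr17 encodes a G protein-coupled receptor that is switched off before myelination. It ran from 24.5 to 52.2 CPM in striatum of PCB52 animals (median 38.5) and from 4.27 to 12.9 CPM in their cerebellum (median 8.56). In sham animals it ran from 14.6 to 59.0 CPM in striatum (median 32.3) and from 5.32 to 12.3 CPM in cerebellum (median 9.34). The regions did not overlap, and the log2 fold change was 2.15 ± 0.18 in PCB52 animals and 1.90 ± 0.18 in sham animals (SE, edgeR adjusted p = 3.64e-14 and 3.20e-12). Gpr17 shares its locus with Lims2, which stood at 31.0 ± 6.12 CPM in striatum and 10.5 ± 1.86 CPM in cerebellum (SD, n = 22 each). Reads of overlapping genes cannot be told apart where the use of strand is not known.

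Enpp6, a choline phosphodiesterase and an early marker of newly forming oligodendrocytes, ran from 9.72 to 26.5 CPM in striatum of PCB52 animals (median 14.97) and from 3.45 to 12.99 CPM in their cerebellum (median 7.41). In sham animals it ran from 8.35 to 24.0 CPM in striatum (median 13.01) and from 4.54 to 14.5 CPM in cerebellum (median 8.75). The regions overlapped in both treatments, with 9 of 12 PCB52 and 4 of 10 sham striatal libraries above the highest cerebellar one. The log2 fold change was 0.98 ± 0.19 in PCB52 animals and 0.63 ± 0.20 in sham animals (SE, edgeR adjusted p = 1.78e-05 and 0.00542).

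Bcas1 encodes a protein of premyelinating and early myelinating cells. It ran from 249 to 640.4 CPM in striatum of PCB52 animals (median 344) and from 99.8 to 193 CPM in their cerebellum (median 126). In sham animals it ran from 152 to 663 CPM in striatum (median 311) and from 107 to 239 CPM in cerebellum (median 162). The regions did not overlap in PCB52 animals, and in sham animals 9 of 10 striatal libraries lay above the highest cerebellar one. The log2 fold change was 1.40 ± 0.18 in PCB52 animals and 1.09 ± 0.19 in sham animals (SE, edgeR adjusted p = 5.80e-09 and 2.27e-06).

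The transcription factors of the whole lineage differed by amounts between those of Enpp6 and Cspg4. Sox10, which activates myelin genes directly, ran from 91.0 to 156 CPM in striatum of PCB52 animals (median 108) and from 19.7 to 54.7 CPM in their cerebellum (median 31.5). In sham animals it ran from 61.7 to 171 CPM in striatum (median 106) and from 23.7 to 54.2 CPM in cerebellum (median 40.5). Its log2 fold change was 1.71 ± 0.16 in PCB52 animals and 1.46 ± 0.16 in sham animals (SE, edgeR adjusted p = 1.74e-12 and 2.81e-10). Olig1, a factor of maturation and repair, ran from 313 to 478 CPM in striatum of PCB52 animals (median 367.3) and from 82.2 to 207 CPM in their cerebellum (median 119.7). In sham animals Olig1 ran from 261 to 561 CPM in striatum (median 361) and from 88.6 to 215 CPM in cerebellum (median 127). Its log2 fold change was 1.51 ± 0.14 in PCB52 animals and 1.54 ± 0.15 in sham animals (SE, edgeR adjusted p = 3.12e-12 and 6.11e-12). Olig2, which specifies the lineage, ran from 46.2 to 85.5 CPM in striatum of PCB52 animals (median 62.7) and from 14.1 to 32.9 CPM in their cerebellum (median 22.7). In sham animals Olig2 ran from 46.3 to 87.5 CPM in striatum (median 66.7) and from 17.7 to 36.2 CPM in cerebellum (median 24.6). Its log2 fold change was 1.52 ± 0.13 in PCB52 animals and 1.41 ± 0.14 in sham animals (SE, edgeR adjusted p = 3.90e-13 and 1.11e-11). The regions did not overlap for these 3 genes. In all, 7 of the 8 lineage genes did not overlap between the regions in PCB52 animals and 5 of 8 did not in sham animals, against 30.8% and 30.6% of the 12446 genes tested.

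**Figure D1:**
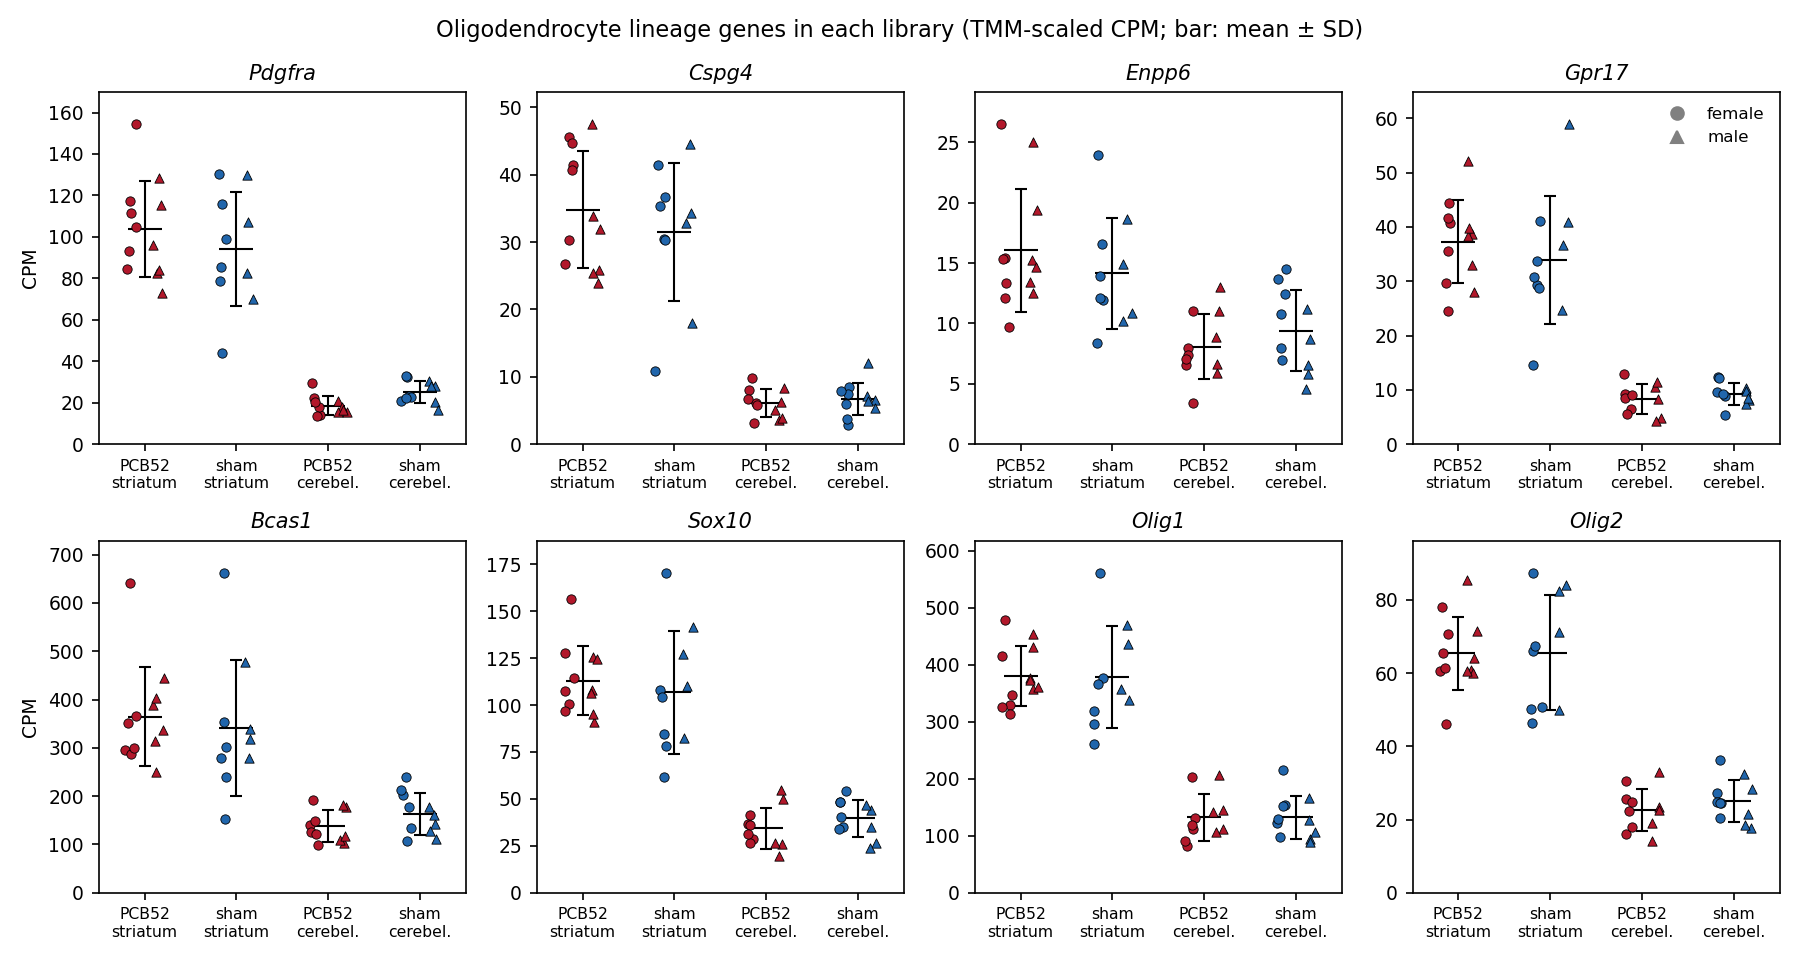
CPM of each lineage gene in each library (vertical axes from 0, one panel per gene), with PCB52 animals in red left of sham animals in blue, circles for females, triangles for males, and the mean ± SD of each group in black. Striatal libraries lie above cerebellar ones with no overlap for Pdgfra, Gpr17, Sox10, Olig1 and Olig2, and Enpp6 overlaps in both treatments.

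Leaving out the 3 libraries with transcripts of another tissue, 8 of 8 genes were called higher, with log2 fold changes of 0.98 to 2.50 in PCB52 animals and 0.63 to 2.43 in sham animals. Leaving out the 5 libraries with transcripts of both sexes, 8 of 8 were also called, at 0.97 to 2.51 and 0.56 to 2.16. The same animal gave both regions in 21 cases, and the difference could be read within each animal. The 21 include the animals of the libraries with another tissue and of those with transcripts of both sexes. RNA of the latter libraries may not be of 1 animal alone, and the within-animal values were not recomputed without them. Pdgfra, Cspg4, Gpr17, Sox10, Olig1 and Olig2 were higher in striatum in 21 of 21 animals, Bcas1 in 20 and Enpp6 in 19. The mean difference within an animal was 2.15 ± 0.57 on the log2 scale for Pdgfra and 0.76 ± 0.67 for Enpp6 (SD, n = 21).

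Myelin genes also differed between the regions. The mature oligodendrocyte and myelin list, of 12 genes such as Opalin, Tspan2, Mobp and Mag, had 12 of 12 members called higher in striatum in both treatments, with a median log2 fold change of 1.17 in PCB52 animals and 0.99 in sham animals. The medians of the 8 lineage genes were 1.61 and 1.502, and those of all genes were -0.04 and -0.03. In sham animals Opalin, a membrane protein of mature oligodendrocytes, stood 1.88 ± 0.15 higher, Tspan2 1.48 ± 0.13, Mobp 1.40 ± 0.20 and Mag 1.23 ± 0.19 (log2, SE). The mean log2 level of the myelin list was 1.12 ± 0.62 higher in striatum within an animal (SD, n = 21) and higher in 20 of 21 animals. Cspg4 and Gpr17 exceeded that difference in 20 of 21 animals, Pdgfra, Sox10 and Olig1 in 19, Olig2 in 17, Bcas1 in 12 and Enpp6 in 3.

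**Figure D2:**
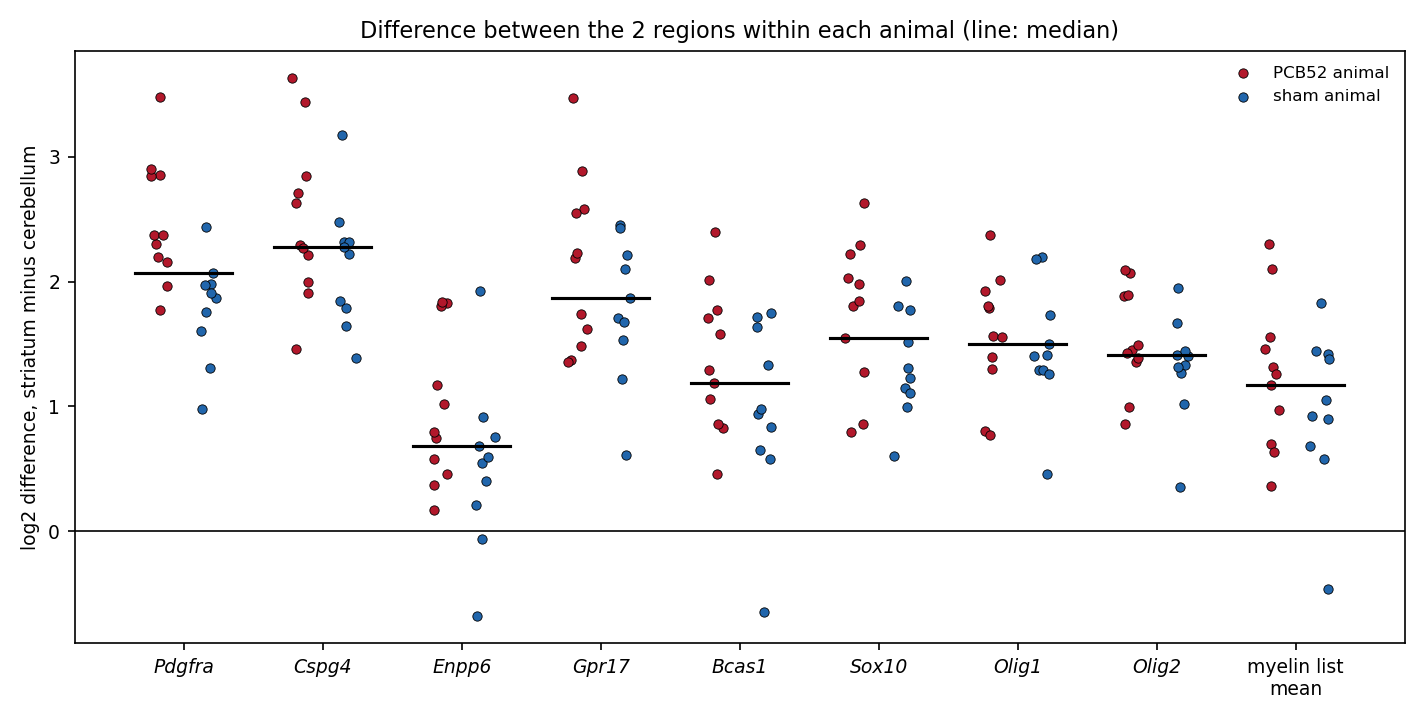
Difference between striatum and cerebellum within each of 21 animals (vertical axis, log2 CPM of striatum minus cerebellum) for the 8 lineage genes and for the mean of the myelin list, with PCB52 animals in red left of sham animals in blue and a line at the median of 21. Enpp6 lies below the myelin list in most animals, while Pdgfra, Cspg4 and Gpr17 lie above it.

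With the mean of the myelin list as a covariate, 6 of the 8 genes were called higher in striatum in both treatments, and Enpp6 was called lower in sham animals. Called in either direction in that fit were 6 of 8 lineage genes in PCB52 animals, against 60.5% of the 12446 genes. In sham animals 7 of 8 were called in either direction, against 55.8%. Pdgfra was 2.25 ± 0.27 higher in PCB52 animals and 1.70 ± 0.25 in sham animals (log2, SE, edgeR adjusted p = 2.67e-09 and 1.68e-07). Cspg4, Gpr17, Sox10, Olig1 and Olig2 also remained called, at 0.59 to 2.08 in PCB52 animals and 0.55 to 1.82 in sham animals. Bcas1 was not called, at 0.06 ± 0.12 in PCB52 animals and -0.11 ± 0.11 in sham animals (SE, edgeR adjusted p = 0.680 and 0.453). Enpp6 changed sign, to -0.28 ± 0.19 in PCB52 animals and -0.46 ± 0.18 in sham animals (SE, edgeR adjusted p = 0.192 and 0.0247). The covariate itself differs between the regions: the summed myelin list ran from 9549 to 33545 CPM in striatum and from 5045 to 14896 CPM in cerebellum.

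**Figure D3:**
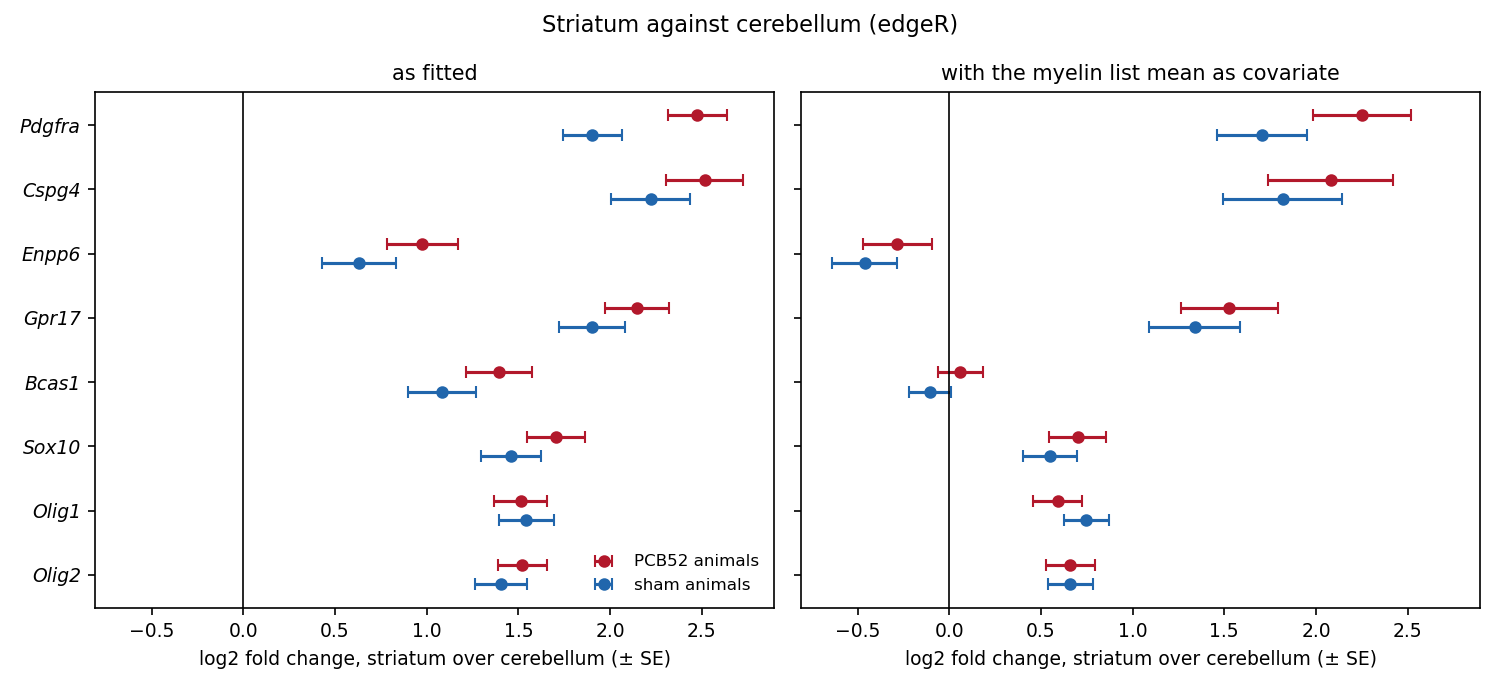
Log2 fold change, striatum over cerebellum (horizontal axis, ± SE from edgeR), of the 8 lineage genes as fitted (left) and with the mean of the myelin list as a covariate (right), in PCB52 animals (red, upper) and sham animals (blue, lower). With the covariate Bcas1 lies near 0 and Enpp6 below it, while the other 6 stay above 0.

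Other genes of the lineage did not move as one block between the regions. Of 12 other precursor genes 9 were measured, and in PCB52 animals 7 were called higher in striatum and 1 lower, with a median log2 fold change of 1.12. In sham animals 6 were called higher and 1 lower (median 0.90). The background was 36.5% higher and 40.4% lower in PCB52 animals and 34.3% and 35.5% in sham animals. Cacng4, an auxiliary subunit of glutamate receptors, stood 2.35 ± 0.09 higher in sham animals, Neu4, a sialidase, 1.16 ± 0.15, C1ql1, a secreted C1q-like protein, 1.18 ± 0.15, and Pcdh15, a protocadherin, 1.84 ± 0.29 (log2, SE). Of 12 committed and newly formed oligodendrocyte genes 9 were called higher and 3 lower in PCB52 animals (median 0.54), and 8 and 3 in sham animals (median 0.59). Cnksr3, a signalling scaffold, stood at -2.17 ± 0.12 in sham animals, while Casr, the calcium-sensing receptor, stood 3.08 ± 0.31 higher, Lims2 1.52 ± 0.12 higher and Rras2, a small GTPase, 0.68 ± 0.09 higher (log2, SE). Which cells the RNA of these genes came from was not tested.

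Of 8 measured lineage transcription factors besides Sox10, Olig1 and Olig2, 6 were called higher and 2 lower in PCB52 animals (median 1.24), and 5 and 2 in sham animals (median 0.98). Sox8, a close relative of Sox10, stood 1.70 ± 0.07 higher in sham animals and Myrf, which drives myelin gene transcription, 1.51 ± 0.22, while Myt1 stood at -2.45 ± 0.24 (log2, SE). Of 9 genes that hold back differentiation, 7 were called higher and 1 lower in PCB52 animals (median 0.64), and 6 and 1 in sham animals (median 0.66). Hes5, a target of Notch signalling, stood 5.36 ± 0.27 higher in sham animals, Id4 0.66 ± 0.08 and Gpr37, an orphan receptor, 1.12 ± 0.13, and Id2 stood at -1.55 ± 0.13 (log2, SE).

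Among 5 genes of PDGF ligands and the other receptor, 3 were called higher and 1 lower in both treatments, with medians of 1.66 in PCB52 animals and 1.57 in sham animals. Pdgfa, the main ligand of PDGFRα on precursors, had a log2 fold change of 0.02 ± 0.08 in sham animals (SE, edgeR adjusted p = 0.861). Pdgfc, another ligand of that receptor, stood 4.04 ± 0.25 higher, Pdgfb 1.57 ± 0.10 and Pdgfrb, the receptor of pericytes, 1.72 ± 0.20, and Pdgfd stood at -1.36 ± 0.20 (log2, SE). Of 6 cell division genes 5 were called higher and 1 lower in both treatments (median 1.42 in PCB52 animals and 1.53 in sham animals). Top2a stood 3.95 ± 0.38 higher in sham animals, Ccna2 1.73 ± 0.30, Mki67 1.51 ± 0.29 and Birc5 1.22 ± 0.24 (log2, SE). These levels were low: over both treatments the 6 genes together summed to 10.1 to 58.3 CPM in striatum and 9.76 to 17.2 CPM in cerebellum. The regions overlapped in this sum.

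Markers of other cell types moved with the region too. In PCB52 animals 10 of 10 microglia markers (median 1.496), 8 of 8 endothelium markers (median 1.35) and 8 of 9 pericyte markers (median 1.15) were called higher in striatum, while 3 of 10 astrocyte markers were higher and 2 lower (median 0.13). In sham animals the counts were 10 of 10 (median 1.76), 8 of 8 (median 1.17) and 8 of 9 (median 1.16), and 4 higher and 2 lower for astrocytes (median 0.02). Summed pericyte markers ran from 198 to 339 CPM in striatum and from 99.6 to 179 CPM in cerebellum, with 0 of 9 at 0 in any group. Of 10 meningeal fibroblast markers 1 was called higher in both treatments, 3 were called lower in PCB52 animals and 2 in sham animals (median -0.32 and -0.68). Their sums ran from 113 to 1093 CPM in striatum and from 59.9 to 610.0 CPM in cerebellum, with 0 of 10 at 0. The striatal maximum was in a PCB52 female. Medians of the groups ran from 132 to 158 CPM in striatum and from 166 to 220 CPM in cerebellum. Of 6 Schwann cell markers 4 were measured in the fit and 4 were called higher in both treatments, and Ncmap, which marks myelinating Schwann cells, was at 0 in each striatal group. The part of these cell types in the levels of Pdgfra, Cspg4 and Sox10 was not tested.

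PCB52 was set against sham to ask whether the exposure changes the lineage genes in either region. No lineage gene was called in males, in females or in the mean of both sexes, in striatum or in cerebellum, by edgeR, DESeq2 or limma. The background by edgeR was 0% of genes called in each of these 6 comparisons. No lineage gene separated PCB52 from sham libraries without overlap in either sex, against 0.546% of genes in striatal females, 0.362% in striatal males, 0.225% in cerebellar females and 0.860% in cerebellar males (0% over both sexes in either region).

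Pdgfra in cerebellum came nearest to the threshold. It stood at 15.5, 15.6, 16.7, 18.1 and 20.99 CPM in PCB52 males, against 16.5, 20.6, 28.0, 28.2 and 30.6 CPM in sham males. In females it ran from 13.4 to 29.6 CPM in PCB52 animals (median 19.3, n = 6) and from 21.002 to 32.8 CPM in sham animals (median 22.99, n = 6). In each sex the groups overlapped, with PCB52 animals mostly at the low end: 2 of 5 males and 4 of 6 females lay below every sham library of their sex. The mean over both sexes was 18.6 ± 4.62 CPM in PCB52 animals and 25.3 ± 5.38 CPM in sham animals (SD, n = 11 each). The log2 fold change over both sexes was -0.47 ± 0.15 (SE, 95% interval -0.77 to -0.16, edgeR adjusted p = 0.326). It was -0.53 ± 0.22 in males and -0.41 ± 0.20 in females (SE, edgeR adjusted p = 0.313 and 1.00).

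At an unadjusted p under 0.05, 1 of 8 lineage genes passed in the mean of both sexes in cerebellum and 1 in males (Pdgfra in both) and 1 in females (Enpp6), against 14.8%, 14.3% and 3.16% of all genes. A share of 1 in 8 is near the background in the first 2 of these. In males the count was 0 without the libraries with transcripts of both sexes and 0 without sham male 1, where the log2 fold change of Pdgfra was -0.39 ± 0.26 and -0.43 ± 0.23 (SE, edgeR adjusted p = 0.395 and 0.610). Without the 4 cerebellar libraries with transcripts of both sexes the log2 fold change of Pdgfra over both sexes was -0.38 ± 0.17, and without sham male 1 it was -0.42 ± 0.15 (SE, edgeR adjusted p = 0.5256 and 0.516). Summed meningeal fibroblast markers in cerebellum ran from 59.9 to 610.0 CPM in PCB52 animals and from 100.4 to 522 CPM in sham animals, and pericyte markers from 99.6 to 179 CPM and from 106 to 146 CPM. Ribosomal protein genes, an 82-gene list chosen after seeing the data, summed to 16718 to 77834 CPM in PCB52 and 16687 to 35900 CPM in sham cerebellum. The part of these transcripts in the level of Pdgfra was not tested.

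For Enpp6 in cerebellum the estimates had opposite signs in the sexes, and the difference between them did not pass the adjusted threshold. This was not particular to Enpp6. Olig1 stood at 0.28 ± 0.24 in males and -0.27 ± 0.22 in females, and Cspg4 at -0.48 ± 0.33 and 0.10 ± 0.30 (log2, SE). Enpp6 stood at 5.93, 6.68, 8.90, 10.99 and 12.99 CPM in PCB52 males, against 4.54, 5.81, 6.57, 8.75 and 11.2 CPM in sham males. In females it ran from 3.45 to 11.05 CPM in PCB52 animals (median 7.24) and from 7.001 to 14.5 CPM in sham animals (median 11.6). The groups overlapped in both sexes. The log2 fold change was -0.64 ± 0.26 in females and 0.29 ± 0.29 in males (SE, edgeR adjusted p = 1.00 and 0.495). The female minus the male effect was -0.92 ± 0.39 (SE, edgeR adjusted p = 0.774), and 1 of 8 lineage genes was under an unadjusted p of 0.05 there, against 2.17% of all genes. In sham animals Enpp6 was 0.59 ± 0.28 higher in females than in males (SE, edgeR adjusted p = 1.00). Without the libraries with transcripts of both sexes the female minus the male effect was -1.09 ± 0.46 and the sham difference 0.76 ± 0.37, and without sham male 1 they were -0.80 ± 0.39 and 0.47 ± 0.29 (log2, SE). The summed myelin list in these libraries ran from 5045 to 11303 CPM in PCB52 females, 5896 to 13672 CPM in PCB52 males, 6738 to 14896 CPM in sham females and 6080 to 12104 CPM in sham males. With the mean of that list as a covariate, the female minus the male effect on Enpp6 was -0.31 ± 0.25 and the sham difference 0.23 ± 0.17 (SE, edgeR adjusted p = 0.875 and 1.00), and 0 of 8 lineage genes were under an unadjusted p of 0.05 in either. Over both sexes the log2 fold change of Enpp6 with the covariate was 0.01 ± 0.12 in place of -0.18 ± 0.19 (SE), and that of Pdgfra was -0.47 ± 0.16.

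The other 6 lineage genes in cerebellum gave log2 fold changes over both sexes of -0.24 ± 0.15 for Bcas1, -0.20 ± 0.17 for Sox10, -0.19 ± 0.22 for Cspg4, -0.16 ± 0.19 for Gpr17, -0.16 ± 0.15 for Olig2 and 0.01 ± 0.16 for Olig1 (SE). In all 7 of 8 were below 0, with a median of -0.18 against 0.00 for all genes. The myelin list had 11 of 12 members below 0 (median -0.14), with the lowest p for Ugt8 and Ermn, at -0.36 ± 0.23 and -0.35 ± 0.23 (SE, edgeR adjusted p = 0.361 and 0.369). None of the 56 measured genes of the 7 lineage lists was called by edgeR, against 0% of all genes. At an unadjusted p under 0.05 there were 5, against 14.8% of all genes. Hes5 stood at 1.18 ± 0.41 and Id2 at 0.27 ± 0.12 among genes that hold back differentiation (median 0.07), Traf4 at 0.29 ± 0.13 and Ptprz1 at -0.53 ± 0.30 among other precursor genes (median -0.10), and Tns3 at -0.28 ± 0.11 and Itpr2 at -0.41 ± 0.26 among committed genes (median -0.11; log2, SE). Nkx2-2 stood at 0.16 ± 0.08 and Zeb2 at -0.40 ± 0.24 among lineage transcription factors (median 0.02), Pdgfa at 0.13 ± 0.08 and Pdgfrb at -0.18 ± 0.22 among PDGF genes (median -0.04), and Mki67 at -0.33 ± 0.33 and Birc5 at 0.20 ± 0.27 among cell division genes (median 0.02; log2, SE).

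**Figure D4:**
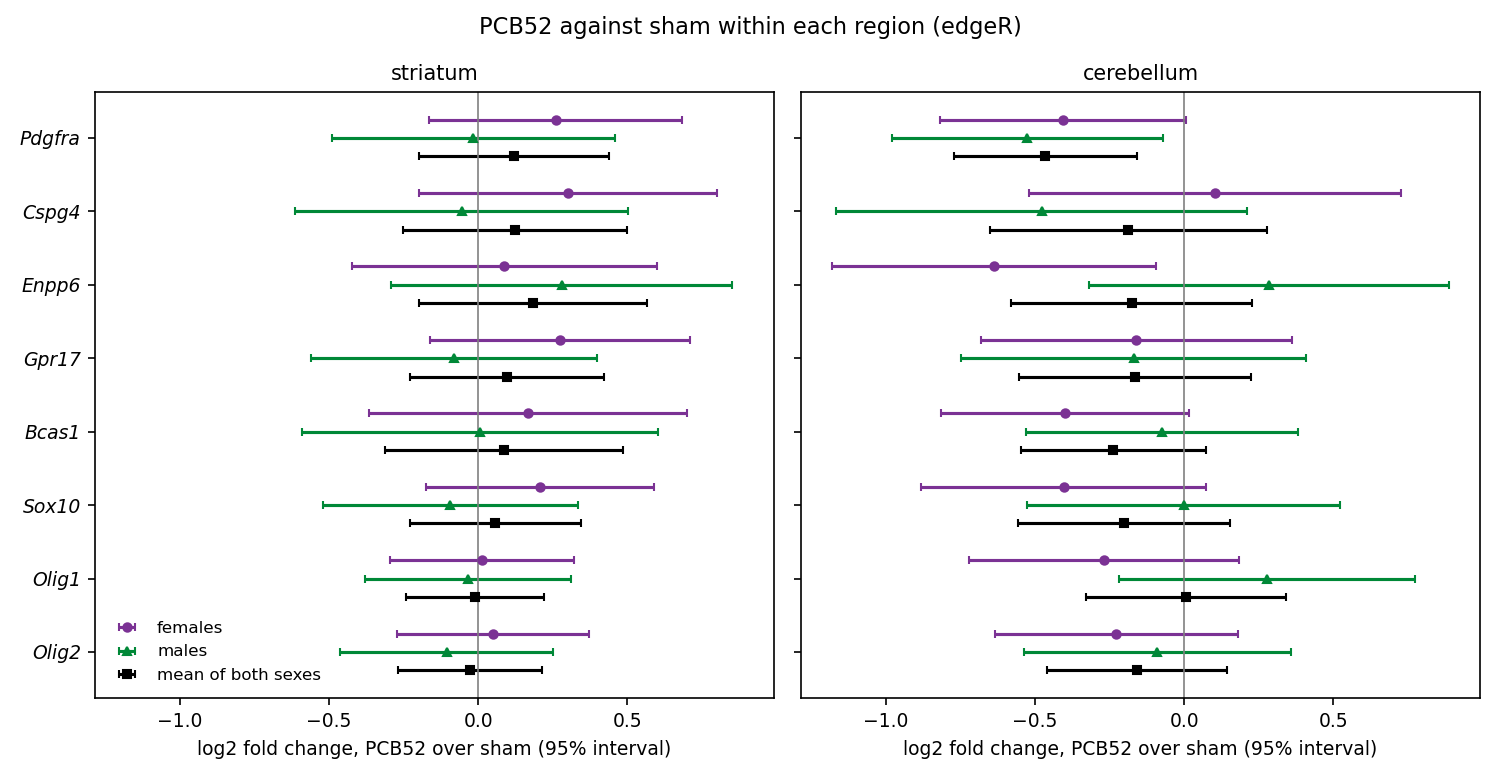
Log2 fold change, PCB52 over sham (horizontal axis, with 95% intervals from edgeR), of the 8 lineage genes in striatum (left) and cerebellum (right), for females (purple circles), males (green triangles) and the mean of both sexes (black squares). Pdgfra in cerebellum lies at -0.47 in the mean of both sexes. Enpp6, Olig1 and Cspg4 in cerebellum lie on opposite sides of 0 in the sexes.

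In striatum the lineage genes lay close to 0. Over both sexes the log2 fold changes ran from -0.03 ± 0.12 for Olig2 to 0.18 ± 0.19 for Enpp6 (SE), with a median of 0.09 against 0.00 for all genes, and the smallest edgeR adjusted p was 0.804. Pdgfra stood at 103.7 ± 23.1 CPM in PCB52 animals (n = 12) and 94.3 ± 27.5 CPM in sham animals (n = 10; SD), and Bcas1 at 365 ± 103 and 340.5 ± 141 CPM. None was under an unadjusted p of 0.05, against 5.8% of all genes. In males they ran from -0.11 to 0.28 and in females from 0.01 to 0.30, and none was under an unadjusted p of 0.05, against 0.898% and 13.4% of genes. The female minus the male effect ran from -0.19 to 0.36, with none called against 0% of genes and none under an unadjusted p of 0.05 against 3.88%. In females Cspg4 was 0.30 ± 0.24, Gpr17 0.27 ± 0.21 and Pdgfra 0.26 ± 0.20 above sham (log2, SE, edgeR adjusted p = 0.534, 0.516 and 0.528). Sham female 12 lowered the sham side of these 3 genes: without it they were 0.13, 0.14 and 0.12. Without this library and PCB52 female 20, Pdgfra was 0.00 ± 0.17 in females. Of 61 measured genes of the 7 lineage lists none was called by edgeR in the mean of both sexes, and 2 were under an unadjusted p of 0.05: Cemip2, a hyaluronidase, at 0.34 ± 0.13, and Sox5, a SOX factor, at 0.62 ± 0.24 (log2, SE, edgeR adjusted p = 0.774 for both).

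The effect of PCB52 was then compared between the regions in 1 fit of all 44 libraries. None of the 8 lineage genes was called, against 0% of genes, and 1 was under an unadjusted p of 0.05, against 18.3% of genes. That gene was Pdgfra, whose striatal effect exceeded its cerebellar effect by 0.57 ± 0.22 (log2, SE, 95% interval 0.13 to 1.02, edgeR adjusted p = 0.268). The other 7 ran from -0.03 for Olig1 to 0.35 for Enpp6. Within animals the striatal excess of Pdgfra ran from 1.77 to 3.48 in PCB52 animals (mean 2.47 ± 0.50, n = 11) and from 0.98 to 2.44 in sham animals (mean 1.79 ± 0.41, n = 10; log2, SD), so the groups overlapped. With the animal as a replicate block the difference was 0.69 ± 0.20 (SE, edgeR adjusted p = 0.311). Without the 3 libraries with another tissue it was 0.40 ± 0.20, and without the 5 with transcripts of both sexes 0.45 ± 0.24 (SE, edgeR adjusted p = 0.645 and 0.440).

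No difference between females and males was called in the lineage genes. The sexes also differed in age at assignment, which cannot be told apart from sex here. In cerebellum this test called 0 of 11690 genes in either treatment, and 4 of the 11 sham libraries there held transcripts of both sexes, so it says little about a sex difference. Without those libraries 5 genes were called in PCB52 and 4 in sham cerebellum, and 0 of 8 lineage genes. In PCB52 animals 0 of 8 were called in striatum, against 0.0412% of genes, and 0 of 8 in cerebellum, against 0%. In sham animals 0 of 8 were called in striatum, against 0.0329% of genes, and 0 of 8 in cerebellum, against 0%. Under an unadjusted p of 0.05 there were 0 of 8 in PCB52 striatum (background 4.69%), 0 in PCB52 cerebellum (3.24%), 0 in sham striatum (2.55%) and 1, Enpp6, in sham cerebellum (1.05%). DESeq2 and limma called 0 of 8 in each. Gpr17 in sham striatum ran from 14.6 to 41.1 CPM in females (median 30.1, n = 6) and stood at 24.8, 36.7, 41.0 and 59.0 CPM in males. The groups overlapped, and the log2 fold change, females over males, was -0.44 ± 0.23 (SE, edgeR adjusted p = 1.00). Without striatum of sham male 1 it was -0.20, and without the libraries with another tissue -0.31.

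Within groups the lineage genes varied together in striatum and split in cerebellum. The deviations of log2 CPM from the group mean were correlated over the 22 libraries of a region. These correlations are descriptions, since libraries share a dissection, a depth and a composition. Striatum of sham female 12, lowest for 6 of the 8 genes and among the 3 lowest for 8, is included. The correlations were not recomputed without it, and the share over all pairs of genes was not taken. In striatum 24 of 28 pairs had a Pearson r over 0.5 and none was negative, with the highest for Pdgfra and Cspg4 (0.91) and the lowest for Pdgfra and Olig1 (0.16). Cspg4 and Gpr17 reached 0.89, Sox10 and Bcas1 0.89, Sox10 and Olig2 0.88 and Olig1 and Olig2 0.83. In cerebellum 14 of 28 pairs were over 0.5 and 5 were negative, with the highest for Olig1 and Olig2 (0.84) and the lowest for Pdgfra and Olig1 (-0.26). Enpp6 and Bcas1 reached 0.80 there and Cspg4 and Gpr17 0.77, while Pdgfra and Enpp6 stood at -0.03.

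**Figure D5:**
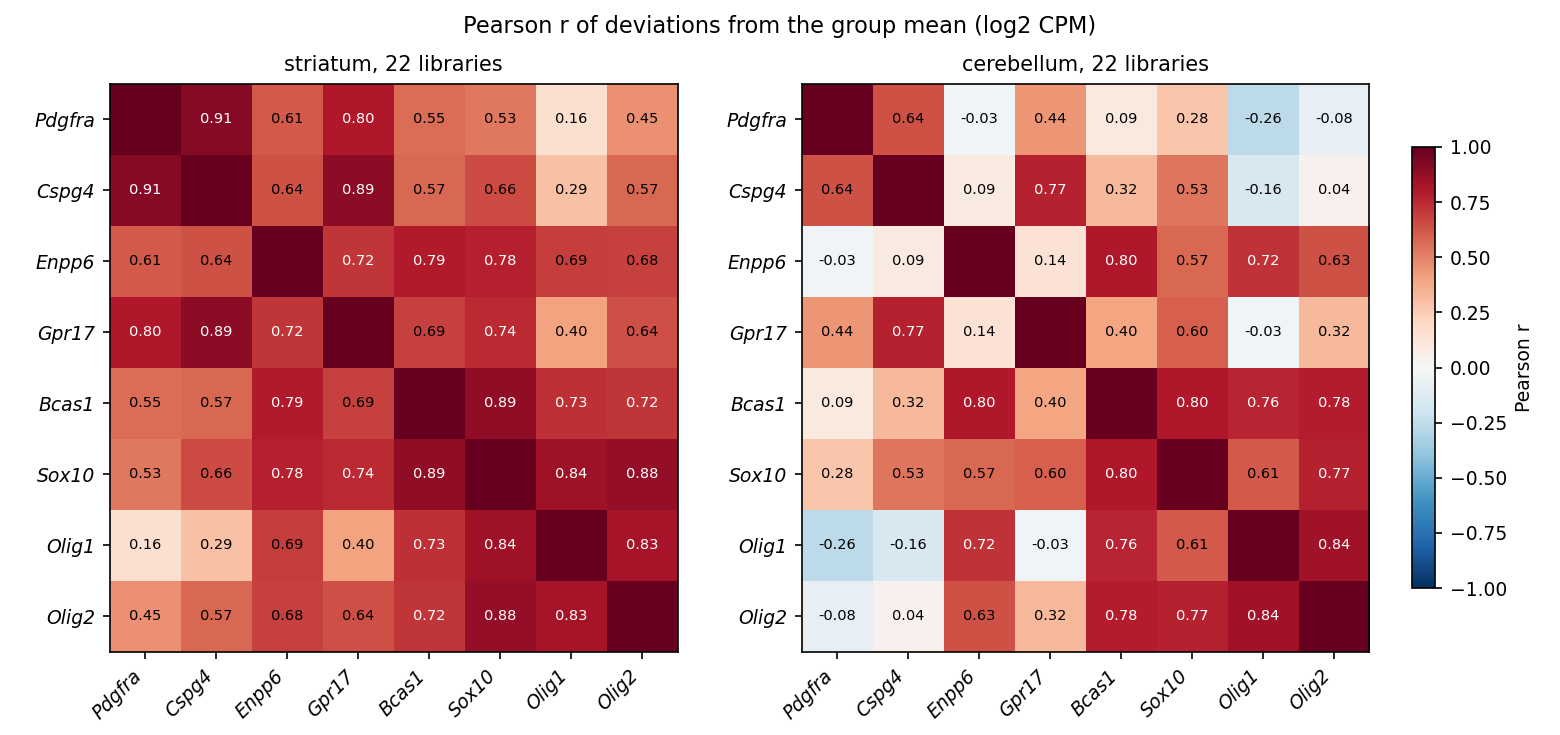
Pearson r between lineage genes over the 22 libraries of striatum (left) and of cerebellum (right), from deviations of log2 CPM from the group mean, on a scale from -1 (blue) to 1 (red). In cerebellum Pdgfra, Cspg4 and Gpr17 form one positive block and Enpp6, Bcas1, Sox10, Olig1 and Olig2 another, with Sox10 also at 0.53 with Cspg4 and 0.60 with Gpr17, and values near or below 0 between Pdgfra and Olig1 or Enpp6.

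Bcas1 followed the myelin genes most closely in both regions. Its r with the mean of the myelin list was 0.96 in striatum and 0.91 in cerebellum, and with Mbp, which encodes myelin basic protein, 0.97 and 0.92. Pdgfra had 0.46 and -0.03 with the myelin list, Cspg4 0.53 and 0.13, Gpr17 0.64 and 0.28, Enpp6 0.78 and 0.84, Sox10 0.88 and 0.76, Olig1 0.79 and 0.86 and Olig2 0.79 and 0.82. The libraries richest in myelin transcripts in striatum, sham female 4 and PCB52 female 24, with 33545 and 29550 CPM summed over the 12 genes, also had the highest Bcas1, at 663 and 640.4 CPM. Pdgfra, Cspg4 and Gpr17 were lower in libraries with more RNA of the 82 ribosomal protein genes: their r with that list was -0.73, -0.76 and -0.71 in striatum and -0.62, -0.75 and -0.85 in cerebellum. For Bcas1 it was -0.10 and -0.12. With astrocyte markers Pdgfra, Cspg4 and Gpr17 had 0.81, 0.81 and 0.84 in striatum and 0.59, 0.70 and 0.85 in cerebellum, and Bcas1 and Sox10 had 0.81 and 0.82 in striatum and 0.50 and 0.70 in cerebellum. What these libraries share besides the lineage was not tested.

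Across all genes with a mean of at least 1 CPM, genes among the 5 most like each lineage gene over 22 libraries are named. Bcas1 was nearest to Mbp (0.97), Padi2, Lpar1, Mobp and Cdc42ep1 in striatum and to Mobp (0.95), Mbp, Slc44a1 and Pip4k2a in cerebellum. Sox10 was nearest to Aatk (0.95), Cdc42ep1, Ddr1, Slc6a9 and Llgl1 in striatum and to Prr18 (0.95), Myrf, Ugt8, Tgfa and Dpy19l1 in cerebellum. Olig1 was nearest to Gna12 (0.94), Pink1, Sirt2 and Litaf in striatum and to S1pr5 (0.96), Aplp1, Wscd1, Cnp and Gatm in cerebellum. Olig2 was nearest to Ddr1 (0.90), Llgl1, Sox10, Aatk and Slc29a3 in striatum and to Spsb1 (0.91), C19h1orf198, Mag and Fa2h in cerebellum. Enpp6 was nearest to Marchf8 (0.92), Abtb2, Gng12, Cpox and Dusp15 in striatum and to Pkp1 (0.89), Nipal4, Cyp3a9, Cldn11 and Ndrg1 in cerebellum.

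Pdgfra, Cspg4 and Gpr17 had other neighbours. Pdgfra was nearest to Flna (0.94), Myh11, Itgb1, Sec63 and Zeb1 in striatum and to Myof (0.88), Pdgfrb, Epha4 and Cgnl1 in cerebellum, and its r with Pdgfrb was 0.90 and 0.85. Cspg4 was nearest to Nfasc (0.94), Notch1, Mical3, Il6st and Gja1 in striatum and to Mid2 (0.91), Odf2, Acvr1c, Mob1b and Adcy5 in cerebellum. Gpr17 was nearest to Nfasc (0.95), Phlpp1, Pex5l, Abca2 and Map4k4 in striatum and to Sort1 (0.95), Ubxn2b, Lpin1, Cox15 and Slc7a2 in cerebellum. Its r with Lims2, the gene at its locus, was 0.79 in striatum and 0.22 in cerebellum.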

How the data were processed

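RNA was taken from tissue punches with TRIzol and spin columns, and libraries were made after poly(A) capture or rRNA removal, per the labels' protocols. Reads were handled with FastQC and HISAT2 and the build rn6, per the submitters' processing notes. Which counter and annotation were used, and whether strand was read, is not given in the sources used here. The deposited values are raw counts per gene, in 1 table per region. Of 47 labelled samples 44 had a column, and cerebellum of sham male 5 and striatum of sham males 5 and 7 are not analysed here. Of 15319 identifiers 15230 (99.4%) matched a rat symbol.

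Counts were fitted with edgeR 4.0.16 (R 4.3.3): TMM factors, filterByExpr and the robust quasi-likelihood F-test (two-sided), with Benjamini-Hochberg adjustment over all genes tested. This left 12142 genes in striatum, 11690 in cerebellum and 12446 over both regions. Each fit used all groups of its libraries. The analysis was tested on simulated data. DESeq2 1.42.0, limma 3.58.1 (voom with quality weights), RLE factors, no filter, the compared libraries alone, the myelin list as covariate, the animal as block, and leaving out libraries were tried as alternatives. Log2 levels used a prior count of 2, and differences within an animal a pseudocount of 0.5 CPM.

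The labels number the animals, and the same number in both regions marks 1 animal, which pairs 21 libraries of striatum and cerebellum. Deviations of paired libraries from their group means had a median r of 0.100 over 11446 genes (-0.451 to 0.566), against -0.0098 between different animals. Libraries were set aside as holding another tissue where a panel mean exceeded its regional median by more than 2 on the log2 scale, and as holding transcripts of both sexes where Xist and Eif2s3y were both above 3 CPM. The lineage genes, lists and rules were chosen with earlier results of these data known. Of each list up to 4 called genes of smallest p are named, or up to 2 where none was called. For likeness the 5 genes of highest r are taken. A few genes that these rules select are not reported here.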

Additional observations from a re-analysis of the deposited data

Results flagged for a closer look

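In 64 groups of lineage gene, region, treatment and sex, 4 had 1 library far from the others of its group by Dixon's criterion, where chance gives about 1 in 20 groups. Bcas1 stood at 640.4 CPM in striatum of PCB52 female 24, against 288.1 to 366 CPM in the other PCB52 females. Enpp6 stood at 26.5 CPM in that library, against 9.72 to 15.4 CPM in the others. The library also had the highest summed myelin list among PCB52 striata, at 29550 CPM. Cspg4 stood at 10.8 CPM in striatum of sham female 12, against 30.4 to 41.4 CPM in the other sham females. That library, which held olfactory bulb transcripts, was the lowest of all striatal libraries for 6 of the 8 lineage genes. Cspg4 stood at 12.1 CPM in cerebellum of sham male 1, against 5.42 to 7.16 CPM in the other sham males, and that library held choroid plexus transcripts. The part of these transcripts in the 4 values was not tested.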

How the results depend on the processing

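For the lineage genes 58 results were recomputed, which were single fold changes and, for each comparison, the count of lineage genes called. Under alternatives other than leaving out 1 library, 11 fold changes changed sign and 1 kept its sign but lost its call. The other 449 values were fold changes that kept their direction and side of the threshold, or counts of genes called, which have no direction. For the regional difference the count fell from 8 to 7 in sham and to 6 in PCB52 animals with the myelin list as covariate. In all 3 regional calls were lost, each with the myelin list as covariate: Bcas1 in both treatments and Enpp6 in PCB52 animals. In that fit Enpp6 in sham animals was still called, but lower in striatum in place of higher. With the myelin list as covariate, the regional log2 fold change of Enpp6 was -0.28 in PCB52 and -0.46 in sham animals, that of Bcas1 0.06 and -0.11, and the PCB52 effect on Enpp6 in cerebellum 0.012. The other changes of sign were in PCB52 effects over both sexes that lay near 0. In striatum Sox10 was -0.010 with limma, Pdgfra -0.0063 without libraries with another tissue, and Olig1 0.035 and Olig2 0.010 without libraries with transcripts of both sexes. In cerebellum Olig1 was -0.0090 with limma, -0.039 without libraries with transcripts of both sexes and -0.025 without that with another tissue. The cause was not tested. Leaving out 1 library at a time, 23 of the values changed sign, in 5 results: striatum Bcas1 (-0.028 to 0.25), Sox10 (-0.0069 to 0.16), Olig1 (-0.057 to 0.074) and Olig2 (-0.095 to 0.037), and cerebellum Olig1 (-0.092 to 0.080). With the animal as a replicate block, 8 of 8 regional calls held in each treatment, at 1.02 to 2.57 in PCB52 and 0.61 to 2.22 in sham animals, and no other call changed. The smallest edgeR adjusted p was then 1.60e-12 in PCB52 and 7.26e-10 in sham animals, against 2.14e-17 and 1.05e-13 without the block. The cerebellar counts of Cspg4, Enpp6 and Gpr17 were as low as 22, 25 and 26 per library, which limits their precision.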
